A study of Arabidopsis thaliana with 6 samples.

Results

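Stage 12 floral buds were compared with roots in 2 natural accessions of Arabidopsis thaliana, the reference strain Col-0 and Can-0, which comes from the Canary Islands. Each combination of accession and tissue is 1 polyA RNA library, so 4 of the 6 libraries of the series enter the comparison directly, and the 2 seedling libraries, aged 11 days, enter only through the shared fit. Both accessions are founders of a multiparent inbred mapping population. Floral buds at stage 12, the last stage before the flower opens, came from plants in soil, whereas roots came from seedlings aged 10 days on plates, all under 16 h of light and 8 h of dark at 20 °C. Buds were sequenced in runs 36 (Col-0) and 35 (Can-0) and both roots in run 40, so tissue cannot be told apart from run, age and growth medium. The comparison takes each gene's log2(RPKM + 1) in the bud minus that in the root of the same accession, where RPKM is reads per kilobase of exon model, scaled to the mapped reads of the library.

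A stage 12 bud holds nearly mature organs of all 4 whorls. The sepals are green, the petals have reached the stamens in length, the anthers carry pollen in its last stages of development, and the carpels carry ovules. A young root is organised around a meristem that feeds files of epidermis with hairs, an endodermis sealed by the Casparian strip and by suberin, and a central cylinder, and it takes up water and mineral ions. The libraries were made from whole organs, so a higher share of a cell type and more RNA per cell of that type cannot be told apart in any value that follows.

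Promoter sequence was read for the root hair genes, because this list was lower in the bud for every member and its genes are known to share a promoter element. The root hair element, first described in part from some of these genes, was searched by its published consensus on both strands in the 250 bases upstream of each annotated gene start. It was present in 8 of 19 root hair windows (42.1%) and in 0.746% of all 28008 windows of measured genes. Because the element was described in part from members of this list, the contrast between these shares was partly fixed beforehand. It was not tested. It is 1 of 8 motifs that were searched over the 35 gene lists described here, and values for the others are not given. The 8 genes were PRP1, PRP3, EXPA7, EXPA18, LRX1, MRH6, RHS15 and RHS18, and the EXPA18 window overlaps another gene. The windows of 4 of them are shown here, for genes that were at or close to 0 in both buds, with the element in capitals. They lie on the plus strand of the TAIR10.1 reference (RefSeq) at chr3:23182472-23182721, chr1:4276255-4276504, chr2:1131870-1132119 and chr5:7426060-7426309, directly before the gene start, and the element begins 167, 78, 73 and 92 bases upstream of that start, in the same order. In PRP3 the element matches the consensus on the opposite strand, so its capitals show the reverse complement. In EXPA7, MRH6 and RHS18 it matches on the gene strand.
PRP3: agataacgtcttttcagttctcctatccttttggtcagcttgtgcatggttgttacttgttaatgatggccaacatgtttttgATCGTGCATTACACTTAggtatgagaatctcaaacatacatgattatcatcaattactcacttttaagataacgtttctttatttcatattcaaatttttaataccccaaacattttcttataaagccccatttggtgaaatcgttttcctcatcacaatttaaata
EXPA7: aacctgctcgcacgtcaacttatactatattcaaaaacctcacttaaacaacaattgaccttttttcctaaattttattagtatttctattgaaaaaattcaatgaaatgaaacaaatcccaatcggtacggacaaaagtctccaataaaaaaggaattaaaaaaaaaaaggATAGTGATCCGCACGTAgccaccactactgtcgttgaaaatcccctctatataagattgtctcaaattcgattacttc
MRH6: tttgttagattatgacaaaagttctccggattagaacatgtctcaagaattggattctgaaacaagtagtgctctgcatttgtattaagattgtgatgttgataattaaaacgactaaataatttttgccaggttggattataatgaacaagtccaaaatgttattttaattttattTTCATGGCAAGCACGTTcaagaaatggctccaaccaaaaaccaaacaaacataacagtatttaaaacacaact
RHS18: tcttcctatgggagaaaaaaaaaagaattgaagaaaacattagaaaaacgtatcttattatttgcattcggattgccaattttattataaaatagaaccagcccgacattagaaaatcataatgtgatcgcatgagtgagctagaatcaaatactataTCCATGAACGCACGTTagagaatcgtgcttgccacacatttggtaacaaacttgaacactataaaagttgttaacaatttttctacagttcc
A match describes letters in a window and does not show that a factor binds there.

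Of 20830 genes tested, 11932 (57.3%) differed between bud and root at an adjusted p under 0.05 in limma with Benjamini-Hochberg adjustment, with tissue and accession as terms and n = 2 libraries a tissue. The bud was higher for 6309 genes (30.3%) and lower for 5623 (27.0%). After the values of each library were centred on their median, 5336 genes were higher and 7488 lower, and the median difference over all genes moved from 0.02 to -0.19. The p-values rest in part on how far a gene's tissue differences, seedlings included, vary between the 2 accessions. The other part is the spread estimated from all tested genes at a like level. No tissue was sampled more than once within an accession. The number of calls moved with single libraries: without the Can-0 bud 5801 genes were called, without the Col-0 bud 6139, and without the Col-0 root 7872.

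Large differences made up a substantial part of these calls. The bud was higher by at least 2 on the log2(RPKM + 1) scale for 2605 genes (12.5%) and lower by at least 2 for 1700 (8.16%). At a difference of at least 5, the numbers were 489 and 282. Genes higher in the bud by at least 2 held 29.7% and 29.8% of the RPKM total in the Col-0 and Can-0 buds and 1.61% and 1.34% in the roots. Genes lower in the bud by at least 2 held 18.9% and 20.19% in the roots and 1.09% and 1.16% in the buds. A set of 283 features was listed at 0 in both roots and at 10 RPKM or more in both buds, and 121 showed the reverse.

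The accessions gave like differences. The sign was the same in both for 18220 genes and opposite for 2487, and only 21 had opposite signs with a difference of at least 1 in each. The median gap between the accessions' differences was 0.259. Across genes, which are not independent replicates, Pearson's r between the 2 sets of differences was 0.952. From here on, values are given for Col-0 first and Can-0 second.

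**Figure D1:**
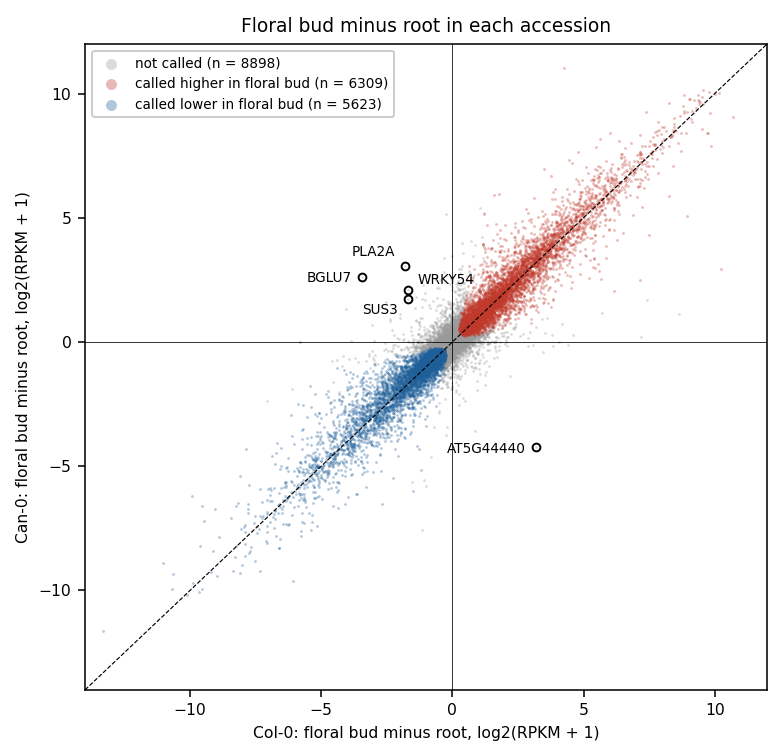
Each point is 1 tested gene, with its floral bud minus root difference in log2(RPKM + 1) in Col-0 on the horizontal axis and in Can-0 on the vertical axis. Most points follow the diagonal, and the 5 named genes have opposite signs in the accessions.

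Lists of genes with known roles are described by counts, to be read against the 30.3% of all tested genes that were higher in the bud and the 27.0% that were lower. A gene used in 1 organ alone passes the filter on low values only through that organ: 1133 tested genes reached 1 RPKM in both buds and in no other library, and 1107 of them were called, while 1116 did so in both roots alone, of which 1088 were called. Of 597 list members, 539 were tested, with 237 higher and 196 lower in the bud. Of the 58 not tested, 39 were under 1 RPKM in all 4 bud and root libraries.

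**Figure D2:**
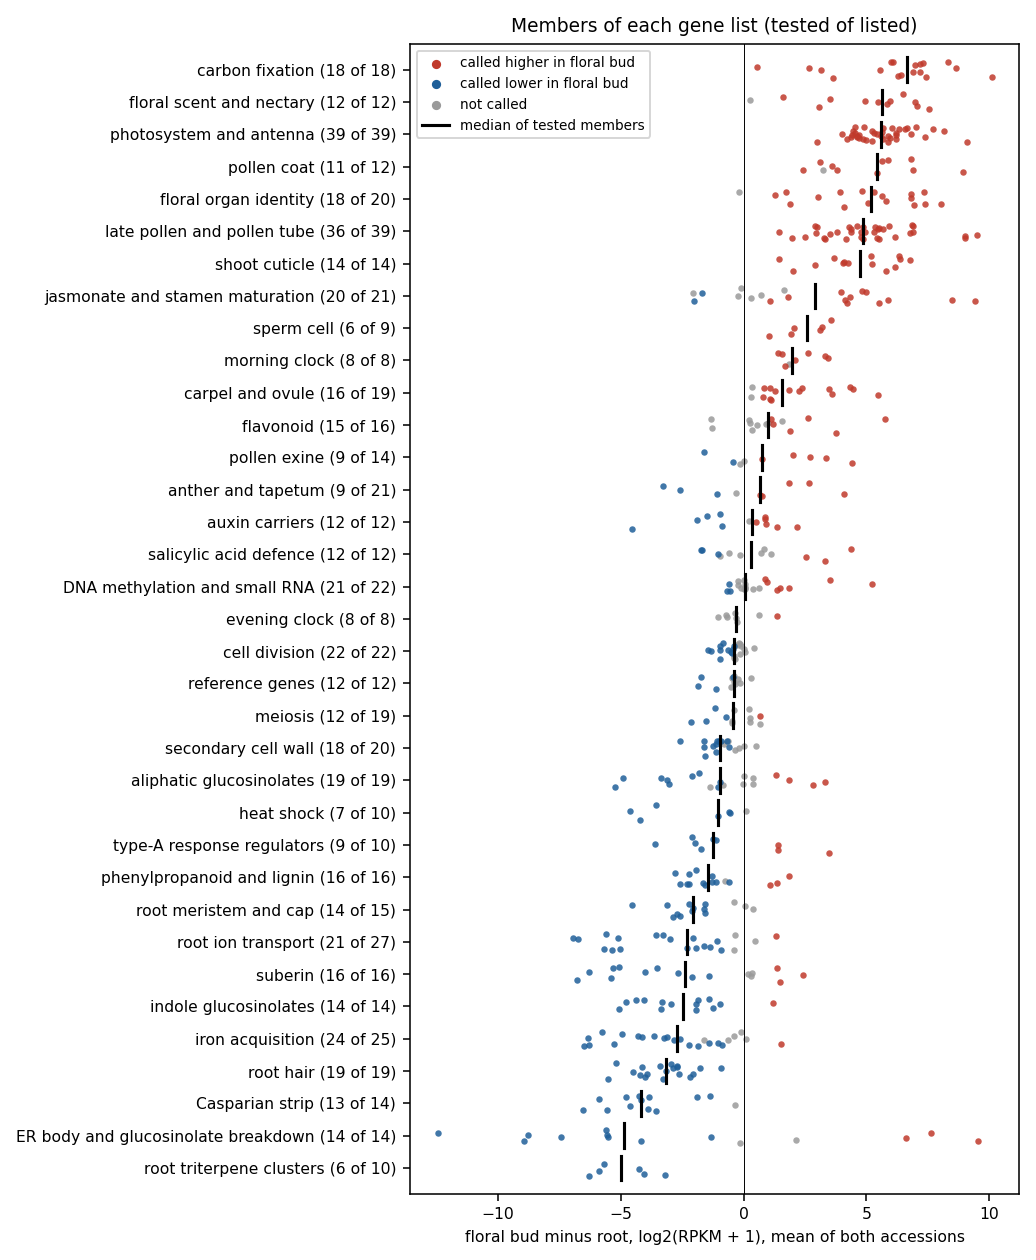
Each row is a gene list and each point a tested member, placed by its floral bud minus root difference in log2(RPKM + 1), with colour showing whether it was called higher, lower or neither. A black bar marks the median. The photosystem, carbon fixation and late pollen lists are among those wholly to the right and the root hair list wholly to the left.

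The floral organ identity genes, mostly MADS-box factors that combine to specify the organs of each whorl, were higher in the bud for 17 of 18 tested members, with a median difference of 5.20. SEP3, a cofactor that joins the identity factors into complexes, was listed at 0 in both roots and at 252 and 274 RPKM in the buds. Its difference was 8.04 (SE 0.13, adjusted p = 7.2e-05). AP3 and PI, which together specify petals and stamens, were high in both buds and low in both roots. AP3 was at 0.383 and 0.5895 RPKM in the roots and 219.5 and 262 RPKM in the buds, and PI at 0.565 and 1.79 RPKM in the roots and 205 and 263 RPKM in the buds. AG, which specifies stamens and carpels, was at 0 in both roots and at 32.2 and 47.8 RPKM in the buds, a difference of 5.33. AP1, needed for sepals and petals, was at 0.03596 and 0 RPKM in the roots and 116 and 116 RPKM in the buds. AP2 was the tested member without a call, at 23.3 and 21.4 RPKM in the roots and 19.8 and 19.7 RPKM in the buds. UFO was listed at 0 in both roots and both buds, and AGL13 was not tested.

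Genes of the carpel and ovule were higher in the bud for 14 of 16 tested members, with a median difference of 1.57. The number fell to 7 without either bud and to 9 or 10 without a root. HAF, a bHLH factor of the tract through which pollen tubes grow, was at 0.0441 and 0 RPKM in the roots and 38.1 and 50.4 RPKM in the buds, a difference of 5.46. CRC, needed for carpels and nectaries, was at 0 in both roots and at 14.2 and 26.4 RPKM in the buds. INO, which builds the outer layer around the ovule, was also at 0 in both roots, and reached 11.04 and 9.11 RPKM in the buds. NGA1, a factor of the style, was at 0.0891 and 0 RPKM in the roots and 24.4 and 19.2 RPKM in the buds. SPT and ANT, which also act in roots or in growing organs at large, were not called, with differences of 0.36 and 0.31.

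Within the anther, the early and late programmes gave unlike counts. Of 21 anther and tapetum genes, which act in the nurse layer that feeds young pollen, 9 were tested. In the bud, 5 were higher (2 without any 1 of the bud and root libraries) and 3 were lower, and the summed level of the list was 56.4 and 60.6 RPKM in the roots and 48.2 and 108 RPKM in the buds. The tapetal regulators DYT1 and MS1 and the tapetal genes A7 and ATA1 were listed at 0 in all 4 libraries. EMS1, the receptor kinase that sets tapetum fate, was at 0.339 and 0.443 RPKM in the roots and 6.94 and 8.699 RPKM in the buds. ATA20 was at 0.824 and 0.759 RPKM in the roots and 11.8 and 71.3 RPKM in the buds, and its call was lost without the Can-0 root library (adjusted p = 0.087). TGA9 and TGA10, bZIP factors needed for anther development, were lower in the bud. TGA9 was at 21.8 and 23.4 RPKM in the roots and 2.49 and 3.43 RPKM in the buds, and TGA10 at 19.8 and 18.4 RPKM in the roots and 0.872 and 1.28 RPKM in the buds.

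Genes for the sporopollenin wall of pollen, or exine, gave 5 higher and 2 lower of 9 tested, and LAP6 and NEF1 had no call. The other 5 of the 14 listed, ACOS5, LAP5, CYP703A2, MS2 and ABCG26, were not tested, so the counts do not cover them. CALS5, which makes the callose wall around young spores, was at 0.08197 and 0.147 RPKM in the roots and 18.8 and 27.8 RPKM in the buds, a difference of 4.42. The lower calls, for DRL1 and DEX1, were lost without either bud. The pollen coat, laid down last, gave higher levels in the bud for 10 of 11 tested members and a median difference of 5.45. GRP17, an oleosin-like coat protein, was at 0.0473 and 0 RPKM in the roots and 323 and 786 RPKM in the buds, a difference of 8.95. The coat list stood at 792 and 1660 RPKM in total in the Col-0 and Can-0 buds and at 7.02 and 5.94 RPKM in the roots. The extracellular lipase EXL4 was at 0 in both roots and 1.08 and 41.4 RPKM in the buds, with no call (adjusted p = 0.073), and EXL6 was at 0 in both roots and 22.6 and 147 RPKM in the buds. For both lipases the Can-0 bud was the higher of the buds.

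All 36 tested genes of late pollen and the pollen tube were higher in the bud, with a median difference of 4.87. Their levels summed to 24.3 and 24.7 RPKM in the roots and to 3419 and 3526 RPKM in the buds. The pectin methylesterases lead the list, enzymes that set the stiffness of the tube wall. VGD1 was at 0.0199 and 0 RPKM in the roots and 465 and 593 RPKM in the buds, a difference of 9.03 (SE 0.17, adjusted p = 7.2e-05). VGDH2 was at 0 in both roots and at 907 and 599 RPKM in the buds. PPME1, of the same enzyme class, is a near-identical copy of AT5G07410, so its reads may be shared. Among the signalling members, the peptide gene RALF4 was at 0 and 0 RPKM in the roots and 119 and 115 RPKM in the buds. ANX1 and ANX2, receptor kinases that keep the tube intact, had differences of 3.32 and 4.88, with bud levels of 18.5 and 19.8 RPKM for ANX1 and of 25.3 and 31.9 RPKM for ANX2. AHA6, a plasma membrane proton pump of pollen, was at 0 and 0.0131 RPKM in the roots and 92.2 and 151 RPKM in the buds. The reproductive actin ACT12 was at 0.0304 and 0.0601 RPKM in the roots and 55.04 and 69.8 RPKM in the buds. In each of these genes both buds exceeded both roots, and the share of all tested genes that did so was not counted.

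Several genes outside the lists ranked with these. PGA4, annotated as a polygalacturonase, was at 0 in both roots and 747 and 1146 RPKM in the buds, a difference of 9.86. AT3G01240 was at 0.2001 and 0 RPKM in the roots and 1225 and 1004 RPKM in the buds, and AT3G49540 at 0.169 and 0 RPKM in the roots and 1037 and 1068 RPKM in the buds. AT5G38760 was at 0 in both roots and both seedlings and reached 650.3 and 852 RPKM in the buds.

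Sperm cell genes were higher in the bud for all 6 tested of 9 listed. The list summed to 1.59 and 0.840 RPKM in the roots, so members passed the filter on low values mainly through the buds. Nearly all genes found in buds alone were called, as given above, so this count was largely fixed beforehand. MGH3, a histone H3 of the male gamete, was at 0 in both roots and 7.39 and 16.03 RPKM in the buds. GEX1 was at 1.19 and 0.532 RPKM in the roots and 11.3 and 22.01 RPKM in the buds. DAZ1, a regulator downstream of the germline factor DUO1, was higher by 2.04, and this call was lost without the Can-0 root library (adjusted p = 0.0798) or the Col-0 root library (adjusted p = 0.0507).

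**Figure D3:**
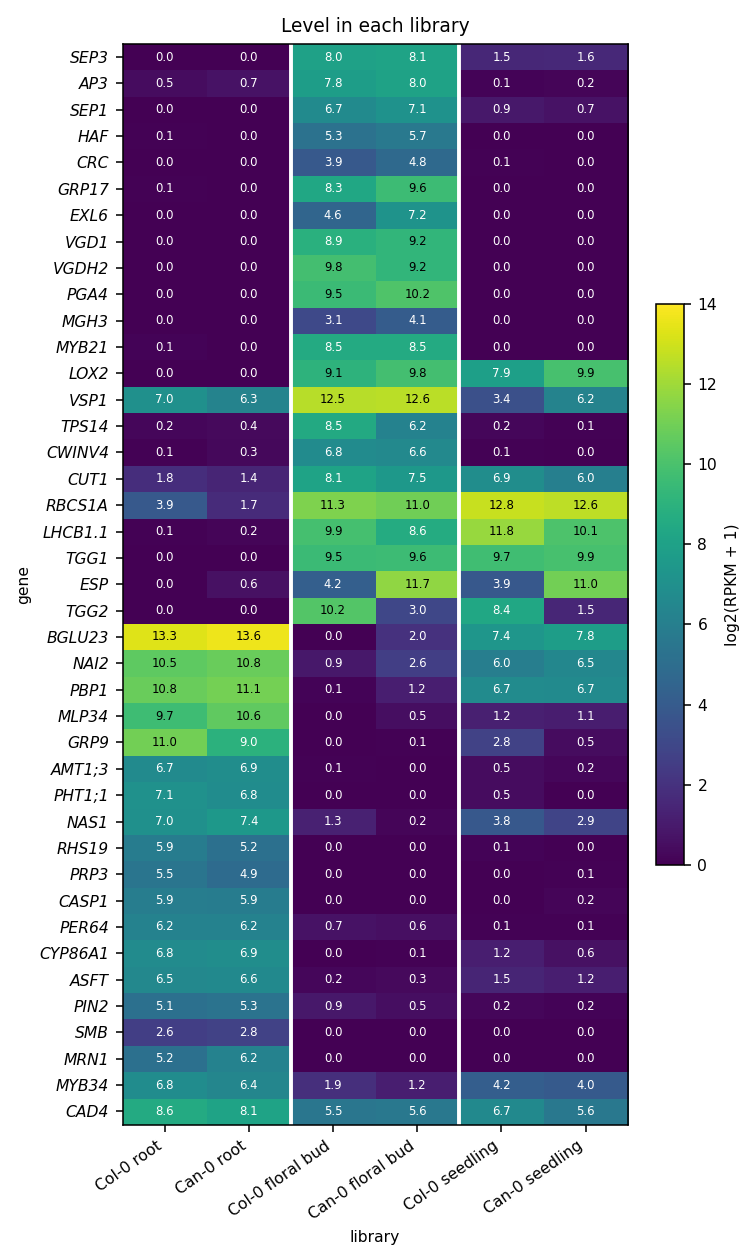
Rows are selected genes, columns are the 6 libraries, and each cell shows log2(RPKM + 1) by its colour and its printed value. The upper rows, from SEP3 to TGG2, are higher in both buds than in both roots, and the lower rows, from BGLU23 to CAD4, are lower, while ESP and TGG2 also differ widely between the buds.

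Genes of meiosis, which is over in the anthers of a stage 12 bud, were higher for 1 and lower for 4 of 12 tested, and 1 was lower without the Can-0 bud and 2 without the Col-0 bud. The higher call, for ZYP1A, was lost without the Can-0 bud, without either root, without either seedling and after median centring, which left 0 higher and 6 lower (7 lower after quantile normalization). ASY1, a protein of the meiotic chromosome axis, was at 3.81 and 4.397 RPKM in the roots and 0.184 and 0.126 RPKM in the buds, a difference of -2.14. DMC1, the recombinase of meiosis, was at 7.99 and 19.6 RPKM in the roots and 3.34 and 7.26 RPKM in the buds, and the Can-0 bud value is close to that of the Col-0 root. Its call was lost without the Can-0 floral bud library (adjusted p = 0.0905), the Can-0 root library (adjusted p = 0.0517) or the Col-0 floral bud library (adjusted p = 0.0848). Genes of the mitotic cell cycle were lower in the bud for 11 of 22 and higher for none. Without either bud 2 were lower, and after median centring 16 were. CYCB1;3, a mitotic cyclin, was at 21.9 and 19.4 RPKM in the roots and 6.81 and 7.09 RPKM in the buds, a difference of -1.44.

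Of genes for DNA methylation and small RNA, 7 were higher and 3 lower of 21 tested, with a median difference of 0.07, and 4 were higher without either bud. The largest differences were those of 2 argonautes, proteins that bind small RNAs. AGO9, known from the cells around the female germline, was at 0.0293 and 0.304 RPKM in the roots and 56.7 and 32.7 RPKM in the buds, a difference of 5.25. AGO5 was at 0.0139 and 0.0138 RPKM in the roots and 14.1 and 8.01 RPKM in the buds. AGO4, which directs DNA methylation in most tissues, was at 17.7 and 18.6 RPKM in the roots and 34.5 and 38.8 RPKM in the buds, a difference of 0.97. The maintenance methyltransferase MET1 had no call and a difference of -0.21. CMT3, RDR6 and KYP were lower, with differences of -0.59, -0.67 and -0.55, and these calls did not hold without any 1 of the bud and root libraries.

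Jasmonate is the hormone that drives stamen filaments to elongate and anthers to open. Its list was higher for 12 and lower for 2 of 20 tested, and 4 were lower after median centring. Fewer were higher without either bud or without the Can-0 root. LOX2, a lipoxygenase at the start of jasmonate synthesis, was at 0 and 0.0308 RPKM in the roots and 531 and 901 RPKM in the buds, a difference of 9.41 (SE 0.48, adjusted p = 0.00023). Further down the pathway, AOS had no call, with 10.98 and 15.01 RPKM in the roots and 14.7 and 17.9 RPKM in the buds. AOC2 was lower in the bud, with a difference of -1.70, a call lost without the Can-0 floral bud library (adjusted p = 0.37), the Can-0 root library (adjusted p = 0.15), the Col-0 floral bud library (adjusted p = 0.147) or the Col-0 root library (adjusted p = 0.286). JAR1, which joins jasmonate to isoleucine to make the active hormone, was at 44.1 and 60.6 RPKM in the roots and 9.35 and 15.6 RPKM in the buds, a difference of -2.01. The stamen factors downstream were high in both buds: MYB21 was at 0.0824 and 0 RPKM in the roots and 372 and 371 RPKM in the buds, a difference of 8.48. MYB108 was at 0.476 and 0.173 RPKM in the roots and 55.4 and 62.5 RPKM in the buds. VSP1, a storage protein gene induced by jasmonate, was at 128 and 77.03 RPKM in the roots and 5708 and 6005 RPKM in the buds, and its call was lost without the Can-0 floral bud library (adjusted p = 0.0986), the Can-0 root library (adjusted p = 0.0549) or the Col-0 floral bud library (adjusted p = 0.12).

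Genes for floral scent and nectar were higher in the bud for 11 of 12, with a median difference of 5.65. AT5G44630, annotated as a terpenoid cyclase, was at 0 in both roots and 186 and 193 RPKM in the buds. TPS14, which makes the volatile linalool, was at 0.164 and 0.278 RPKM in the roots and 358 and 73.5 RPKM in the buds, so the Col-0 bud was well above the Can-0 bud and both were above the roots. In the nectary, SWEET9 exports sucrose and CWINV4 splits it. SWEET9 was at 0 in both roots and 31.4 and 28.4 RPKM in the buds, and CWINV4 was at 0.0424 and 0.2097 RPKM in the roots and 107 and 93.9 RPKM in the buds.

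The shoot cuticle, a layer of cutin and wax that covers aerial organs, gave higher levels in the bud for all 14 genes, with a median difference of 4.73. CUT1, which elongates the fatty acids of wax, was at 2.53 and 1.69 RPKM in the roots and 278 and 174 RPKM in the buds. CER1, which makes alkanes from them, was at 3.86 and 8.18 RPKM in the roots and 350.3 and 388 RPKM in the buds, and MAH1, which oxidises the alkanes, was at 0.0255 and 0.126 RPKM in the roots and 145 and 93.1 RPKM in the buds. The 3 differences were 6.17, 5.79 and 6.77.

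Of the 35 lists, the photosystem and antenna genes had the largest change in summed level in absolute RPKM, though not as a ratio. Among lists with higher sums in the buds, late pollen, pollen coat, floral organ identity, and floral scent and nectary had higher ratios in both accessions. All 39 photosystem and antenna genes were higher in the bud, with a median difference of 5.62. Their sum was 595 and 289 RPKM in the roots and 20720 and 16730 RPKM in the buds. LHCB1.1, an antenna protein of photosystem II, was at 0.0751 and 0.148 RPKM in the roots and 930.4 and 394 RPKM in the buds, but near-identical copies (LHCB1.2, LHCB1.3) can share its reads. All 18 carbon fixation genes were also higher, with a median of 6.66. RBCS1A, the small subunit of Rubisco, was at 14.1 and 2.26 RPKM in the roots and 2534 and 2013 RPKM in the buds, a difference of 8.33. The smallest difference in this list was 0.55 for TKL1, a transketolase, which stood at 183 and 168 RPKM in the roots and 275 and 242 RPKM in the buds. That call was lost without the Can-0 floral bud library (adjusted p = 0.0759), the Can-0 root library (adjusted p = 0.089), the Col-0 floral bud library (adjusted p = 0.0879) or the Col-0 root library (adjusted p = 0.0953).

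In the root direction, genes for the uptake and transport of ions were lower in the bud for 17 of 21 tested and higher for 1, with a median difference of -2.29. Without 1 of the bud or root libraries, 10 to 13 were lower, the fewest without the Col-0 bud. The ammonium transporter AMT1;3 was at 104 and 117 RPKM in the roots and 0.0498 and 0 RPKM in the buds, a difference of -6.76 (SE 0.18, adjusted p = 7.7e-05). The nitrate transporter NRT1.1 was at 258 and 206 RPKM in the roots and 2.89 and 4.66 RPKM in the buds. The potassium channel AKT1 was at 94.5 and 85.7 RPKM in the roots and 0.875 and 0.618 RPKM in the buds. PHT1;1, a phosphate transporter with a near-identical copy, PHT1;2, was at 132 and 112 RPKM in the roots and at 0 in both buds. BOR1, which exports boron, went the other way, with 15.8 and 20.98 RPKM in the roots and 41.04 and 55.3 RPKM in the buds.

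Iron acquisition genes were lower in the bud for 18 of 24 tested and higher for 1, and without a bud 10 (without Col-0) or 11 (without Can-0) were lower. FIT1, the bHLH factor that turns on the iron uptake genes of the root, was at 54.7 and 49.5 RPKM in the roots and 0.521 and 0.231 RPKM in the buds, a difference of -5.28. IRT1, the iron transporter itself, was at 41.5 and 80.1 RPKM in the roots and 16.3 and 26.6 RPKM in the buds, and its call was lost without the Can-0 floral bud library (adjusted p = 0.132), the Can-0 root library (adjusted p = 0.103) or the Col-0 floral bud library (adjusted p = 0.162). ABCG37, which exports coumarins that mobilise iron, was at 96.3 and 136 RPKM in the roots and 0.163 and 0.881 RPKM in the buds. NAS1 and NAS2 make the metal chelator nicotianamine. NAS1 was at 129 and 173 RPKM in the roots and 1.44 and 0.145 RPKM in the buds, and NAS2 was at 65.2 and 99.97 RPKM in the roots and at 0 in both buds. AHA2, the proton pump of root cells, was at 1046 and 1163 RPKM in the roots and kept 134 and 96.7 RPKM in the buds. ZIF1, a vacuolar carrier, was the member higher in the bud, with 9.099 and 9.27 RPKM in the roots and 27.1 and 30.2 RPKM in the buds, a call lost without the Can-0 floral bud library (adjusted p = 0.107), the Col-0 floral bud library (adjusted p = 0.0688) or the Col-0 root library (adjusted p = 0.0699).

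All 19 root hair genes were lower in the bud, with a median difference of -3.16 and summed levels of 355 and 227 RPKM in the roots and 8.78 and 10.5 RPKM in the buds. Without the Col-0 bud 12 were called and without the Can-0 bud 14. The regulator RHD6 was at 9.5 and 7.37 RPKM in the roots and 0.0313 and 0.0646 RPKM in the buds. Its downstream factor RSL4, which sets how long a hair grows, was at 6.397 and 6.48 RPKM in the roots and at 0 in both buds. Among wall genes with a root hair element in the windows shown above, PRP3 was at 43.2 and 28.96 RPKM in the roots and at 0 in both buds, a difference of -5.19. EXPA7, an expansin that loosens the wall of the hair, was at 20.99 and 13.2 RPKM in the roots and at 0 in both buds. MRH6 was at 24.8 and 21.1 RPKM in the roots and 0.103 and 0 RPKM in the buds, and RHS18, annotated as a peroxidase, was at 20.6 and 12.2 RPKM in the roots and 0.103 and 0 RPKM in the buds. In all 4 the Col-0 root was the higher root. The hair gene RHS19 was at 58.4 and 34.8 RPKM in the roots and likewise at 0 in both buds.

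The Casparian strip list, for the lignin band that seals the endodermis, was lower in the bud for 12 of 13 tested, with a median difference of -4.16. CASP1, a membrane protein that marks where the band forms, was at 60.2 and 57.4 RPKM in the roots and at 0 in both buds. MYB36, the factor that turns on this programme, was at 26.2 and 27.2 RPKM in the roots and at 0 in both buds. PER64, the peroxidase that links lignin there, was at 72.2 and 73.7 RPKM in the roots and 0.606 and 0.515 RPKM in the buds. The summed level was 491 and 504 RPKM in the roots and 21.1 and 24.2 RPKM in the buds. SCR, which specifies the endodermis, had no call, at 11.9 and 13.1 RPKM in the roots and 10.6 and 8.95 RPKM in the buds.

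Suberin genes, for the waxy barrier laid over the endodermis, were lower for 10 and higher for 3 of 16. CYP86A1, a fatty acid hydroxylase, was at 107 and 115 RPKM in the roots and 0 and 0.0508 RPKM in the buds, and ASFT, which adds ferulate, was at 90.98 and 97.9 RPKM in the roots and 0.175 and 0.258 RPKM in the buds. GPAT5, an acyltransferase of the same pathway, was higher in the bud, with 14.4 and 15.2 RPKM in the roots and 74.1 and 96.2 RPKM in the buds, a difference of 2.44. The elongase KCS20 was higher too, with 42.8 and 35.95 RPKM in the roots and 117 and 106 RPKM in the buds, so members of 1 pathway were called in both directions.

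Of the genes for the root meristem and cap, 11 of 14 tested were lower in the bud, and 3 had no call. PIN2, the auxin exporter of the root tip, was at 34.3 and 38.7 RPKM in the roots and 0.839 and 0.433 RPKM in the buds, a difference of -4.53. PLT1, a master regulator of the meristem, was at 3.802 and 3.47 RPKM in the roots, and the cap factors were at 5.15 and 5.86 RPKM (SMB) and 6.12 and 9.64 RPKM (BRN1). All 3 were at 0 in both buds. WOX5, which marks the quiescent centre, was at 3.88 and 4.13 RPKM in the roots and 0.0584 and 0.362 RPKM in the buds.

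Root triterpene genes, which lie in biosynthetic clusters, were lower for all 6 tested of 10. The list summed to 0 and 0.0870 RPKM in the buds, so no member could pass the filter on low values through a bud. Nearly all genes found in roots alone were called, as given above, so this count was largely fixed beforehand. In the marneral cluster, MRN1 was at 34.8 and 74.1 RPKM in the roots and CYP71A16 at 52.7 and 116 RPKM, and both were at 0 in both buds. The thalianol cluster genes THAS1, THAH and THAD reached 1 RPKM in the Col-0 root alone, and so were not tested. THAS1 was at 274 and 0.243 RPKM in the roots, THAH at 162 and 0.0647 RPKM and THAD at 353 and 0.0981 RPKM, and no bud exceeded 0.0508 RPKM. For these 3, bud and root can be compared in Col-0 only. AT5G47980, their neighbour in the list, was at 45.6 and 7.06 RPKM in the roots and at 0 in both buds, and its call was lost without the Can-0 floral bud library (adjusted p = 0.0897) or the Col-0 floral bud library (adjusted p = 0.13).

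The lowest difference of all tested genes belonged to the ER body, a compartment of the endoplasmic reticulum that stores glucosidases active against herbivores. BGLU23, the main glucosidase of the root ER body, was at 10330 and 12770 RPKM in the roots and 0.0242 and 2.98 RPKM in the buds. Its difference was -12.47 (SE 0.44, adjusted p = 0.00011). NAI2, which shapes the compartment, was at 1478 and 1805 RPKM in the roots and 0.867 and 5.02 RPKM in the buds, a difference of -8.93. PBP1, a lectin that binds the glucosidase, was at 1816 and 2196 RPKM in the roots and 0.0988 and 1.22 RPKM in the buds, and the related lectins JAL22, JAL33 and JAL34 had differences of -10.14, -9.80 and -10.00. For BGLU23, NAI2 and PBP1 the Can-0 bud held more than the Col-0 bud, and each root held far more than either. Also among the most different genes were MLP34, at 812 and 1535 RPKM in the roots and 0 and 0.454 RPKM in the buds, and GRP9, at 2091 and 505 RPKM in the roots and 0 and 0.0622 RPKM in the buds.

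Genes of glucosinolate breakdown were called in both directions. The myrosinase TGG1, which splits glucosinolates when tissue is wounded, was at 0 and 0.0237 RPKM in the roots and 744 and 785 RPKM in the buds, a difference of 9.56. The root myrosinase TGG4 was at 43.2 and 46.6 RPKM in the roots and at 0 in both buds, and has a near-identical copy. TGG2 was at 0 in both roots and 1207 and 6.76 RPKM in the buds, so the Can-0 bud lay far below the Col-0 bud, and its call was lost without the Can-0 floral bud library (adjusted p = 0.159) or the Col-0 floral bud library (adjusted p = 0.328). The reverse held for ESP, which turns the products towards nitriles: it was at 0 and 0.527 RPKM in the roots and 18.02 and 3221 RPKM in the buds, high in Can-0, and lost its call without the Can-0 floral bud library (adjusted p = 0.243) or the Col-0 floral bud library (adjusted p = 0.129). NSP1, a nitrile specifier with a near-identical copy, was at 525 and 634 RPKM in the roots and 9.27 and 12.7 RPKM in the buds. Over this list of 14, 3 were higher (1 without either bud) and 9 lower in the bud.

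Glucosinolate synthesis was lower in the bud for most of its indole branch, 13 of 14 genes, or 6 without the Can-0 bud and 8 without the Col-0 bud. MYB34, which controls the branch, was at 110.1 and 84.3 RPKM in the roots and 2.65 and 1.299 RPKM in the buds, and CYP79B2, which makes the first intermediate from tryptophan, was at 104 and 66.2 RPKM in the roots and 5.202 and 3.07 RPKM in the buds. CYP81F1 was the member higher in the bud, by 1.22, but a near-identical copy, AT4G37432, can share its reads. The aliphatic branch was split, with 4 higher, 9 lower and 6 without a call of 19, and without the Can-0 or the Col-0 bud the higher calls numbered 1 and 3 and the lower calls 3 and 4. The paralogues CYP79F1 and CYP79F2, which begin the branch from methionine, went opposite ways. CYP79F1 was at 0.0618 and 0.122 RPKM in the roots and 4.57 and 20.3 RPKM in the buds, a call lost without the Can-0 floral bud library (adjusted p = 0.07). CYP79F2 was at 56.5 and 61.4 RPKM in the roots and 0.513 and 1.56 RPKM in the buds, a difference of -4.93. Their regulators also parted: MYB28 was at 31.7 and 24.9 RPKM in the roots and 11.3 and 16.7 RPKM in the buds, and MYB29 at 0 and 0.137 RPKM in the roots and 2.33 and 3.51 RPKM in the buds. The lower call of MYB28 was lost without the Can-0 floral bud library (adjusted p = 0.0728), the Col-0 floral bud library (adjusted p = 0.163) or the Col-0 root library (adjusted p = 0.0924).

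Secondary wall genes, for xylem vessels and fibres, were lower in the bud for 12 of 18 tested and higher for none, and 2 to 6 were lower when 1 bud or root was left out. XCP1, a protease of dying vessel cells, was at 229 and 207 RPKM in the roots and 36.3 and 33.7 RPKM in the buds, a difference of -2.60. Genes of lignin synthesis were lower for 12 and higher for 3 of 16, and 5 were lower without the Col-0 root while none was higher without a bud. CAD4, which makes lignin monomers, was at 375 and 275 RPKM in the roots and 43.7 and 47.3 RPKM in the buds, and CYP98A3, an earlier hydroxylase, was at 94.05 and 107 RPKM in the roots and 12.8 and 19.1 RPKM in the buds. Flavonoid genes gave 6 higher and none lower of 15 tested, with 2 higher without the Can-0 bud and 3 without the Can-0 root. MYB111, a flavonol regulator, was at 0.169 and 0.167 RPKM in the roots and 55.4 and 71.8 RPKM in the buds, a difference of 5.78. TT4, the first enzyme of the pathway, had no call, and its roots, at 426 and 87.97 RPKM, overlapped its buds, at 305 and 498 RPKM.

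Hormone genes divided within families. Of 12 auxin carriers, 6 were higher and 5 lower in the bud, and 2 to 5 were higher and 2 or 3 lower when 1 bud or root was left out. PIN3, an exporter, was at 18.7 and 12.1 RPKM in the roots and 46.8 and 35.5 RPKM in the buds, opposite in direction to PIN2 above. PIN8, an exporter of pollen, was at 0.03999 and 0 RPKM in the roots and 2.26 and 5.45 RPKM in the buds, and its call was lost without the Can-0 root library (adjusted p = 0.0504). Of 9 tested type-A response regulators, which respond to cytokinin and damp its signal, 3 were higher and 6 lower. ARR16 was at 0.759 and 0.477 RPKM in the roots and 24.1 and 11.9 RPKM in the buds, and ARR7 at 15.5 and 14.3 RPKM in the roots and 48.4 and 34.6 RPKM in the buds. ARR4 was at 114 and 87.1 RPKM in the roots and 23.9 and 20.7 RPKM in the buds, and ARR3 at 16.9 and 10.3 RPKM in the roots and 0.0416 and 0.301 RPKM in the buds. Salicylic acid defence genes gave 3 higher, 3 lower and 6 without a call of 12, and no higher call held without a bud.

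Heat shock genes were lower in the bud for 6 of 7 tested, and 2 to 5 were lower when 1 bud or root was left out. HSP90.1, a chaperone induced by heat, was at 29.4 and 65.5 RPKM in the roots and 2.23 and 3.45 RPKM in the buds, a difference of -3.57. Clock genes that peak in the morning were higher for 7 of 8, but 1 or 2 were higher when 1 bud or root was left out. CCA1, a morning repressor, was at 0.622 and 1.17 RPKM in the roots and 12.2 and 25.6 RPKM in the buds, and its call was lost without any 1 of these 4 libraries. The evening genes gave 1 call of 8, for BOA, at 5.63 and 6.62 RPKM in the roots and 21.99 and 13.5 RPKM in the buds, and this call was likewise lost without any 1 of them. The hour of harvest was not given in the sources used here, so its part in the clock genes was not tested.

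Genes commonly used as references were lower in the bud for 4 of 12 and higher for none, 2 were lower without the Can-0 bud or either root, and 10 were lower after median centring. ACT2 was at 510.2 and 439.9 RPKM in the roots and 264 and 177 RPKM in the buds, ACT8 at 355 and 311 RPKM in the roots and 105 and 77.1 RPKM in the buds, and GAPC1 at 1555 and 1724 RPKM in the roots and 484 and 490.0 RPKM in the buds. The ACT2 call was lost without the Can-0 floral bud library (adjusted p = 0.0578), the Can-0 root library (adjusted p = 0.0616) or the Col-0 root library (adjusted p = 0.0547). Of the genes whose mean reached 100 RPKM in the buds and in the roots alike, those with the largest differences included GSR2, a glutamine synthetase, at 2109 and 2486 RPKM in the roots and 229 and 214 RPKM in the buds. AT1G07590 was at 1814 and 2021 RPKM in the roots and 140.2 and 173 RPKM in the buds.

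Gene families grouped by their annotated description are also given as counts. These are to be read against the 30.3% of all tested genes that were higher and the 27.0% that were lower. Peroxidases, which build and cross-link cell walls among other roles, were higher in the bud for 12 and lower for 48 of 65 tested (18.5% and 73.8%). Higher calls numbered 7 without either root and 8 without the Col-0 bud, and lower calls 36 without the Col-0 bud. Their extremes were AT4G17690, at 0.04501 and 0 RPKM in the roots and 62.9 and 63.1 RPKM in the buds, and AT2G38380, at 556 and 338 RPKM in the roots and 0 in both buds. Pectin methylesterases and their inhibitors leaned the other way, with 52 higher and 22 lower of 88, so that 59.1% were higher. WRKY factors, which often act in defence, gave 9 higher and 31 lower of 54, and 4 higher and 21 lower without the Can-0 bud. The largest lower WRKY was WRKY65, at 75.97 and 90.3 RPKM in the roots and 0.0437 and 0.0451 RPKM in the buds. Glutathione transferases gave 9 higher and 29 lower of 46, and 3 higher and 16 lower without the Can-0 bud. The family's lowest difference was that of GSTU8, at 326 and 503 RPKM in the roots and 0.256 and 0 RPKM in the buds.

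MADS-box factors were higher for 28 and lower for 12 of 49 tested, and 69 of the 118 features in this family were not tested. AGL17, a root MADS gene, was at 28.7 and 31.8 RPKM in the roots and 0 and 0.0502 RPKM in the buds, a difference of -4.93. Pentatricopeptide repeat proteins, which process RNA in chloroplasts and mitochondria, gave 57 higher and 8 lower of 248 (23.0% and 3.23%). Both shares are below those of all tested genes. Without the Can-0 bud 24 were higher and 0 lower, and after median centring 44 were higher and 23 lower. F-box proteins, which mark other proteins for breakdown, gave 46 higher and 29 lower of 170 tested (27.1% and 17.1%). Of 629 features in this family, 459 were not tested. The higher share is close to that of all tested genes, and the lower share is below it. After median centring 28 were higher and 36 lower. Without either bud 16 were higher and 13 lower, and without the Can-0 or the Col-0 root 22 and 25 were higher. DAF1, an F-box gene, was at 0 in both roots and 198 and 251 RPKM in the buds. Ribosomal proteins gave 38 higher and 133 lower of 290, but 13 were lower without the Can-0 bud and 25 without the Col-0 bud, and 186 after median centring. Expansins were split at 10 higher and 11 lower of 23, and 5 were lower without the Col-0 bud. In this family, EXPA5 was at 0.103 and 0.203 RPKM in the roots and 147 and 92.7 RPKM in the buds, and EXPA17 was at 30.6 and 77.8 RPKM in the roots and 0 in both buds. The EXPA17 call was lost without the Can-0 floral bud library (adjusted p = 0.0655) or the Col-0 floral bud library (adjusted p = 0.0606).

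**Figure D4:**
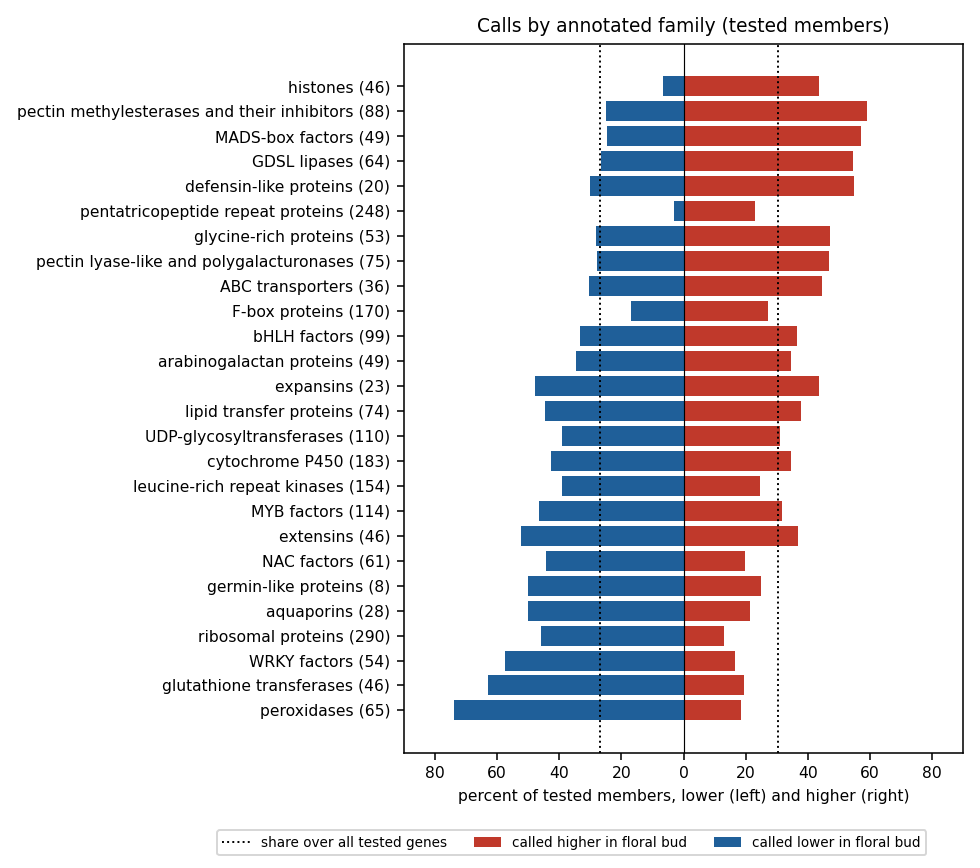
Bars give the percentage of tested members of each annotated family that were called higher (to the right) or lower (to the left) in floral bud than in root, and the dotted lines give the same percentages over all tested genes, 30.3% and 27.0%. Peroxidases reach furthest to the left at 73.8%, and pectin methylesterases reach 59.1% to the right.

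The labelled tissues were checked against their defining genes. Summed levels of the floral identity list were 25.4 and 24.4 RPKM in the roots and 1340 and 1557 RPKM in the buds, and the root hair and Casparian strip sums given above separated the tissues in the other direction. The root meristem and cap list did so less, at 208 and 204 RPKM in the roots and 135 and 69.4 RPKM in the buds. The late pollen sums given above separated the tissues, but those of the anther and tapetum list did not. That list summed to 56.4 and 60.6 RPKM in the roots and 48.2 and 108 RPKM in the buds, with 12 of 21 members not tested. The photosystem and antenna list, read for green tissue in the root libraries, summed to 595 and 289 RPKM there. Depth, estimated from the step between low values, was roughly 22100000 to 22800000 reads in these 4 libraries. There, 3 reads in a gene of 1 kb correspond to 0.131 to 0.136 RPKM. The estimate is rough, since 50.5% to 56.6% of the low values lay close to a whole number of reads. Values below that level rest on very few reads. CRC, HAF, ACT12, ANX1, ASY1, MYB21, TPS14, AKT1, EXPA7, RHS19, CASP1, PER64, ASFT, BGLU23, JAL34, XCP1, CYP98A3, TT4, BOA and AT1G07590 each overlap another annotated gene, and reads of the overlapping genes may not have been told apart, since the handling of strand was not given in the sources used here. Chloroplast genes held 0.348% and 0.394% of the RPKM total in the roots and 1.86% and 2.31% in the buds.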

How the data were processed

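Values were deposited by the authors as RPKM, reads per kilobase of exon model scaled to mapped reads, per the file headers, with 1 table per library. The submitters' processing notes name TAIR9 and TAIR10 without giving their roles. Aligner, counting and strand handling were not given in the sources used here. Libraries were polyA RNA, fragmented and prepared with an adapted small RNA protocol, per the labels' protocols. RPKM is relative, so abundant transcripts in 1 tissue lower all others there, and near-identical copies (95% identity over 50% of length, BLAST+ 2.17.0) may share reads.

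From these values, log2(RPKM + 1) was fitted with limma 3.58.1 (R 4.3.3), with tissue and accession as terms in all 6 libraries, a mean trend, and genes of at least 1 RPKM in at least 2 libraries (20830). A gene was called at an adjusted p under 0.05 (Benjamini-Hochberg). Each group has 1 library, so the accessions stand in for replicates, with 2 residual and 2.55 prior degrees of freedom. The pseudocount of 1 understates the differences of low genes, and a gene at 0 gives no fold. Alternatives covered the pseudocount, filters, scaling, the variance model, the terms and each library left out.

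The comparison and the gene lists were chosen with earlier results of these data known, so counts are descriptions. Named genes followed a rule: the 15 largest differences in each direction, up to 4 per list and direction, the 5 most opposed between accessions, the 5 highest in each tissue, family extremes, and abundant genes. Other members of the lists were named for their roles, after their values were seen. Gene names, windows and gene order came from the RefSeq annotation of TAIR10.1.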

Additional observations from a re-analysis of the deposited data

Results flagged for a closer look

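The 5 genes here are those whose bud minus root differences pointed most strongly opposite ways in the accessions. For each, the difference is bud minus root on the log2(RPKM + 1) scale, and the gap between the accessions was not tested, since each difference rests on 1 bud and 1 root. AT5G44440 had a difference of 3.18 in Col-0, from 1.41 RPKM in the root to 20.8 in the bud, and of -4.22 in Can-0, from 39.6 to 1.18 RPKM. BGLU7 had -3.46 in Col-0, from 23.1 RPKM in the root to 1.19 in the bud, and 2.63 in Can-0, from 0.347 to 7.37 RPKM. PLA2A, a lipid acyl hydrolase, had -1.80 in Col-0, from 3.53 to 0.299 RPKM, and 3.07 in Can-0, from 0.209 to 9.13 RPKM. WRKY54 had -1.71 in Col-0, from 6.77 to 1.38 RPKM, and 2.11 in Can-0, from 2.25 to 13.0 RPKM. SUS3, a sucrose synthase, had -1.69 in Col-0, from 18.5 to 5.01 RPKM, and 1.74 in Can-0, from 0.389 to 3.63 RPKM.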

How the results depend on the processing

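The 11932 calls became 9004 with a mean of at least 5 RPKM, 12824 after median centring and 12748 after quantile normalization, and lay between 10576 and 11971 under the other scalings, filters and variance models. Asking also for a difference of at least 1 left 7886 calls, of which 3310 were lower in the bud. Quantile normalization split the calls into 5447 higher and 7301 lower. Leaving out 1 library gave 5801 to 11707 calls in all, 3541 to 6232 higher and 2260 to 5484 lower; the lowest numbers were those without the Can-0 bud, and a lone library was then assumed to vary like the other groups. Without a root, 3317 (Col-0) and 3657 (Can-0) genes were lower. Genes opposed between the accessions that turned sign without the Can-0 root included PLA2A, to -1.98, WRKY54, to -1.56, and SUS3, to -1.71. Without the Col-0 root these were 3.24, 1.96 and 1.75. Of 245 called genes that the naming rule picked, 72 lost the call without at least 1 library. The cause of these losses was not tested, beyond the smaller number of libraries. The accession term pairs bud and root of the same accession, and without it 10576 genes were called. Beyond that term, no further pairing was possible, since each accession and tissue has 1 library. Levels near 0.131 RPKM in a gene of 1 kb rest on 3 reads.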

Other observations

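Genes with large differences lay next to each other in places. Runs of at least 4 neighbouring measured genes, each called in the same direction with a difference of at least 2, numbered 11 higher in the bud (52 genes) and 5 lower (21 genes). The longest held 7 genes on chromosome 3, from AT3G28770 to AT3G28840, with differences between 4.12 and 9.57, and 2 of its members have near-identical copies. A run of 6 on chromosome 5, from GRP14 to GRP20, is the pollen coat cluster already described, and a run of 6 on chromosome 1 spans AT1G23570 to AT1G23640. In the root direction, 5 genes on chromosome 4 from CYP705A4 to BIA1 differed by 2.68 to 6.76 in size, and NSP1, NSP4, PBP1 and JAL31 on chromosome 3 by 5.23 to 10.32. How many such runs would arise by gene order alone was not tested.

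Aquaporins, which pass water and small solutes, were higher in the bud for 6 and lower for 14 of 28 tested, and 9 were lower without the Col-0 bud. TIP1;3, an aquaporin of pollen, was at 0 in both roots and at 27.3 and 53.6 RPKM in the Col-0 and Can-0 buds, and NLM1 was at 76.2 and 115 RPKM in the roots and 0.0747 and 1.39 RPKM in the buds. GDSL lipases were higher for 35 and lower for 17 of 64, and 10 were lower without the Col-0 bud. AT5G33370 was at 0 in both roots and at 344 and 511 RPKM in the buds, and AT2G23540 was at 118 and 136 RPKM in the roots and 0.0966 and 0.266 RPKM in the buds. NAC factors gave 12 higher and 27 lower of 61 (5 and 13 without the Can-0 bud), and among them NAC019 went from 0.0345 and 0 RPKM in the roots to 202 and 191 RPKM in the buds. Histone genes gave 20 higher and 3 lower of 46, but 3 to 9 were higher when 1 bud or root was left out, and 11 were higher and 6 lower after median centring.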
